A study of Homo sapiens with 3 samples.

Results

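The regions described here are the strong, shaped RNA-binding peaks of RPL22 that share no base with any peak of its paralog RPL22L1. Peaks were taken from the RPL22-HaloTag list when their score was 300 or more, when they were not flat (exactly 30 bases wide with the summit at base 15), and when they lay on chromosomes 1 to 22 or X. Of the 154000 peaks in that list, 3419 were strong and shaped, and 832 of these shared no base with the 254413 peaks of the RPL22L1-HaloTag list. They are called the non-overlapping peaks below, and the other 2587 strong shaped peaks are called the overlapping peaks. The regions were selected on the RPL22 score, the peak shape and the lack of overlap, so none of these is a finding. The share without overlap was 24.3% among strong shaped peaks, 60.8% among all shaped RPL22 peaks and 82.6% among all RPL22 peaks on these chromosomes, and nothing is read from these shares.

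The data came from GoldCLIP sequencing of HCT116, a cell line established from a human colorectal carcinoma and cultured with serum. In GoldCLIP a HaloTag fused to the protein of interest holds it covalently on beads, so that crosslinked RNA can be washed harshly and sequenced. The series had 3 samples with 1 library each, from cells expressing RPL22-HaloTag, RPL22L1-HaloTag or the HaloTag alone, and all carried the tag. Values from the cells with the tag alone were not used here, and hence no measured background stands beside any value below, and the labels give neither the promoter of the fusions nor the number of clones. With 1 library per group there was no test between groups, and peaks of 1 library are not replicates. Intervals are exact Clopper-Pearson 95% intervals that cover counting error only, and the number of reads behind each list is unknown.

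RPL22 belongs to the large subunit of the ribosome, and it also binds stem-loops in RNAs outside the ribosome and is known to influence the splicing of a few transcripts. RPL22L1 is its close paralog and can take its place in the ribosome. Small nucleolar RNAs guide chemical modification of ribosomal RNA and are mostly cut from introns of host genes, and tRNAs are made from precursors with leader and trailer sequences that are removed. Messenger RNAs of ribosomal proteins begin with a C followed by a run of pyrimidines, called the 5′ TOP motif, through which their translation is controlled.

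Of the 29 genes with peaks of this kind near the start, 7 encoded ribosomal proteins, as did 4 of 24 genes with overlapping peaks there, and their first transcribed bases show where the peaks lay. The lines give bases 1 to 30 of each gene on its own strand (RefSeq, GRCh38.p14), with the bases inside the RPL22 peak in capitals.
RPS24: ctcttttcctccttggctgTCTGAAGATAG
RPLP2: ccttttcctccctgTCGCCACCGAGGTCGC
RPS23: ctctttcgctcaggcccgtgGCGCCGACAG
RPS25: ctttttgtccgacatcttgacgaggctGCG
RPL36: CCTTCCGCCACGGCCGTCTCTGGAGAGCAG
RPS27: cctttccggcggtgacgACCTACGCACACG
RPL36A: CTTTCTTTCCGCGCCGATAGCGCTCACGCa
All 7 began with a C followed by 4 bases that were each C or T. In RPS24, RPLP2, RPS23, RPS25 and RPS27 the peak began downstream of this stretch, at bases 20, 15, 21, 28 and 18. In RPL36 and RPL36A the peak covered the annotated start. The peak lists give no strand, so a peak is placed on a gene by position only, and RPL36A also lies within the annotated readthrough gene RPL36A-HNRNPH2.

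The 7 peaks scored 313 to 1743 and lay 434 to 1666 bases from the nearest RPL22L1 peak. RPS24, a small-subunit protein, had the highest, with a RPL22 score of 1743 at chr10:78033882-78033917, and the nearest RPL22L1 peak lay 1666 bases away with a score of 1215 in its own list. RPLP2, an acidic protein of the ribosomal stalk, followed with 1415 at chr11:809981-810050 and a gap of 794 bases to a RPL22L1 peak of score 29. RPS23, which helps to form the decoding site, had 999 and a gap of 450 bases. RPS25 had a score of 761 and a gap of 787 bases to a RPL22L1 peak of 2770. The scores of RPL36, RPS27 and RPL36A were 485, 409 and 313, with gaps of 1183, 434 and 544 bases. Each gene also held RPL22L1 peaks further along, from 1 in RPL36 to 14 in RPL36A. The scores of the lists are on scales that need not match, so they are not compared between lists.

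**Figure D1:**
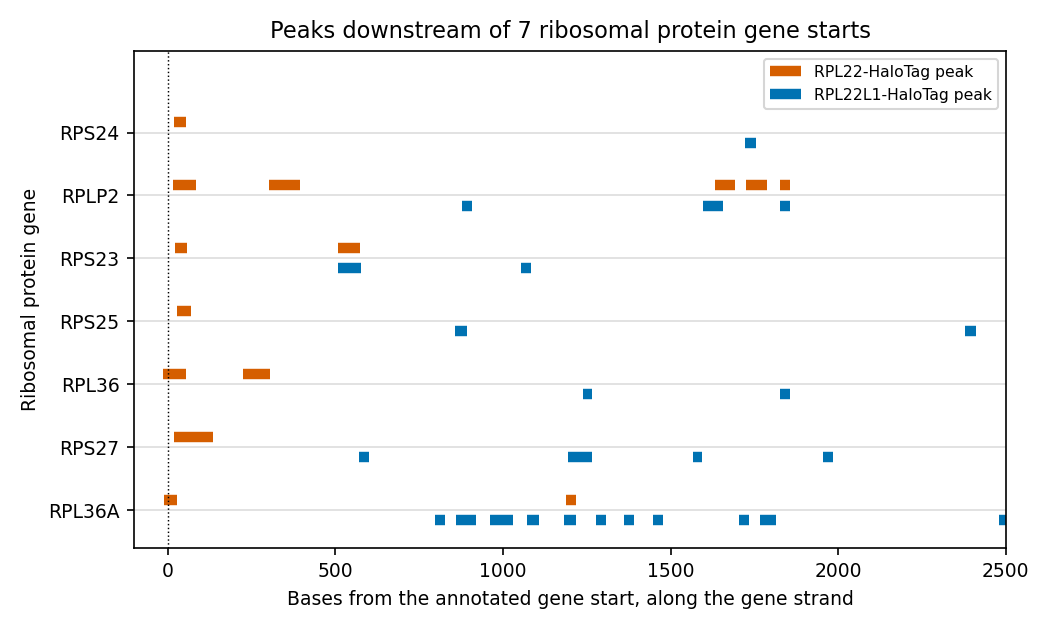
Peaks of both lists along 7 ribosomal protein genes, in bases from the annotated start on the gene strand (x axis), with RPL22 peaks in orange above each line and RPL22L1 peaks in blue below it. An orange bar covers the start in RPL36 and RPL36A and begins shortly downstream of it in the other genes. The blue bar closest to a start on its transcribed side is that of RPS23, from 508 bases.

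Gene starts were more frequent among the non-overlapping peaks than among the overlapping ones. Of 567 non-overlapping peaks in protein-coding genes of known strand, 29 had the summit within 100 bases of the annotated gene start, or 5.11% (3.45 to 7.26%). The overlapping peaks gave 26 of 1650, or 1.58% (1.03 to 2.30%), and all shaped RPL22 peaks 525 of 39989, or 1.31% (1.20 to 1.43%). Shaped RPL22L1 peaks had the lowest share, 155 of 41378, or 0.375% (0.318 to 0.438%). The selection asks for no RPL22L1 overlap and so favours places where RPL22L1 peaks are scarce. The difference at starts can therefore follow in part from the selection, which was not tested. The limit of 100 bases was chosen after the values were seen. For peaks scoring 200 or more the shares were 2.7% (1.95 to 3.63%) and 1.44% (1.07 to 1.90%), and for those scoring 500 or more 7.19% (3.64 to 12.5%) and 2.45% (1.38 to 4.004%), where the intervals overlap. With limits of 50, 200 and 500 bases the non-overlapping peaks had 2.47%, 6.70% and 8.99% and the overlapping peaks 0.727%, 2.79% and 4%.

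**Figure D2:**
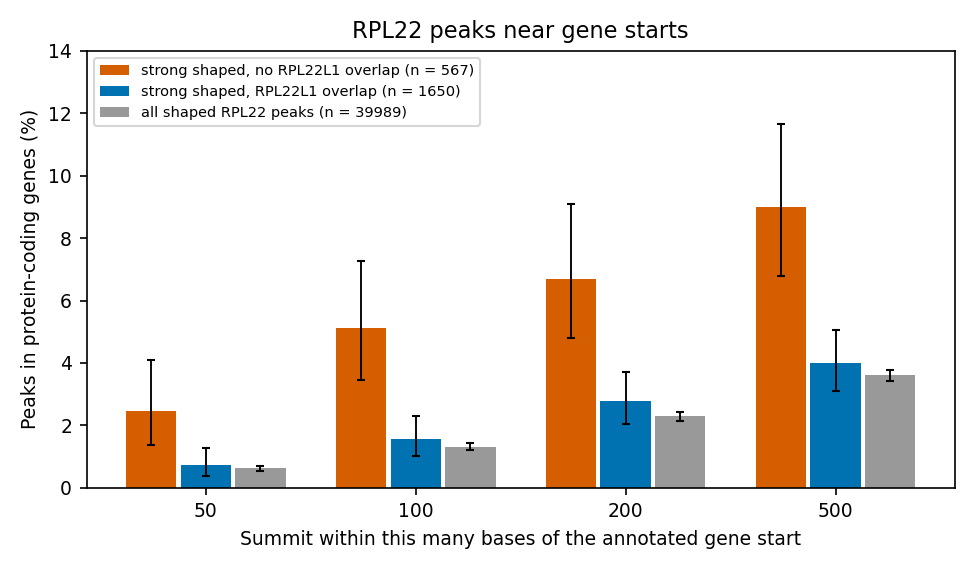
Share of RPL22 peaks in protein-coding genes (y axis, percent) whose summit lay within 50, 100, 200 or 500 bases of the annotated gene start (x axis), with 95% Clopper-Pearson intervals. At 100 bases the strong shaped peaks without RPL22L1 overlap stood at 5.11%, those with overlap at 1.58% and all shaped RPL22 peaks at 1.31%.

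The shares at starts were also counted without ribosomal protein genes and in long genes, under the same selection. Without ribosomal protein genes 22 of 556 non-overlapping peaks lay within 100 bases of a start, or 3.96% (2.50 to 5.93%). For overlapping peaks it was 22 of 1626, or 1.35% (0.850 to 2.04%). In genes longer than 5000 bases the shares were 3.38% (2.02 to 5.29%) and 1.15% (0.682 to 1.81%). The reason for the difference was not tested. The median length of the protein-coding genes was 37636 bases for non-overlapping and 43771 bases for overlapping peaks. At gene ends the shares within 100 bases were 1.41% (0.611 to 2.76%) and 0.970% (0.555 to 1.57%), and these intervals overlap.

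The 29 genes at whose starts these peaks lay, picked out after their values were seen, had varied roles. CFL1, which encodes the actin-severing protein cofilin, had the highest score, 1993 at chr11:65858073-65858129, and its nearest RPL22L1 peak was 2398 bases away. Among small GTPases, RAB7A of late endosomes had 795 with a gap of 2091 bases, and RHOA, a regulator of the cytoskeleton, had 732 with a gap of 704 bases. PRDX2 and TXN, enzymes of thiol redox control, had scores of 608 and 491. ZFP36, which promotes decay of AU-rich mRNAs, had 567, and the Polycomb protein gene SUZ12 had 390. PTBP1, a splicing repressor, and ALYREF, an mRNA export factor, had 331 and 318. The peaks at the starts of HNRNPK and ALYREF also lie within the genes RMI1 and ANAPC11, and without strand these cannot be told apart.

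The letters at these starts were compared with all starts. A C followed by 4 pyrimidines at the first transcribed base was found in 631 of 13792 protein-coding genes whose RefSeq promoter sequence (GRCh38.p14) lies at the gene start, or 4.58% (4.23 to 4.94%). Of the 29 genes above 9 had it, or 31.0% (15.3 to 50.8%), namely the 7 ribosomal protein genes, ELOVL5 and CLNS1A. Without ribosomal protein genes it was 2 of 22, or 9.09% (1.12 to 29.2%), an interval that holds the 4.58% of all starts. Genes with overlapping peaks within 100 bases of the start had it in 5 of 24 cases, or 20.8% (7.13 to 42.2%). Without ribosomal protein genes these gave 1 of 20, or 5% (0.127 to 24.9%). Both intervals of the overlapping peaks overlap those of the non-overlapping peaks. The start was read in 65 ribosomal protein genes, fewer than the 86 of the list below, and 44 of them had it. A RPL22 summit of any score lay within 100 bases of the start in 21 of these 65 genes and a RPL22L1 summit in 14, with 9 genes in both.

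The ribosomal protein genes were then taken as a list, counting every peak within their bounds. Of 64 strong shaped peaks in this list 20 were non-overlapping, or 31.2% (20.2 to 44.1%), in 17 of 86 genes. The background was 24.3%, which lies inside this interval. RPL22 peaks of any kind lay in 67 of the 86 genes and RPL22L1 peaks in 77. In 5 of the 20 cases the summit lay in a snoRNA gene inside the ribosomal protein gene. The others included RPL31 with a score of 1561 at chr2:101006381-101006410. RPLP2 held another peak of 444 beside the one at its start. RPL5, RPS19, RPL8 and RPS4X had scores of 316, 378, 370 and 346.

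Small RNA genes held the highest scores. They were 18 of the 832 regions, or 2.16% (1.29 to 3.40%), against 7.04% (6.08 to 8.09%) of overlapping peaks. Among all shaped RPL22 peaks it was 290 of 53976, or 0.537% (0.477 to 0.603%). Of the 10 highest-scoring regions 6 lay in small RNA genes. The median score was 2010.5 in small RNA genes and 396.5 in protein-coding genes. SCARNA4, a Cajal body RNA, had the highest of all, 134193 at chr1:155925956-155925988, and the nearest RPL22L1 peak was 5993 bases away. SNORD83B, a box C/D snoRNA inside RPL3, had 125237 at chr22:39313814-39313847 and a gap of 5200 bases. SNORA10, a box H/ACA snoRNA inside RPS2, had 86805 at chr16:1962327-1962362 and a gap of 601 bases. These RNAs stood at ranks 22, 24 and 35 in the RPL22 list.

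Further snoRNAs followed at lower scores. SNORA3A, inside RPL27A, had 27160 at chr11:8684326-8684355, SNORD57, inside NOP56, had 12992 at chr20:2656986-2657016, and SNORD69, inside GNL3, had 10971 at chr3:52692779-52692813. In genes this short the selection largely fixes that no RPL22L1 summit lies in the gene, which was so in 15 of 18. The exceptions were SNORA52, SNORA14B and VTRNA1-1, a vault RNA, whose nearest RPL22L1 peaks lay 37, 40 and 17 bases from the RPL22 peak. TERC, the template RNA of telomerase, had a score of 743 and a peak that began 10 bases below the lower-coordinate edge of the gene.

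Most of these peaks sat at an edge of the small RNA. In 17 of 18 cases the peak's edge lay within 12 bases of the gene's edge on the same side, or 94.4% (72.7 to 99.9%). For overlapping peaks in small RNA genes it was 121 of 182, or 66.5% (59.1 to 73.3%), and these intervals overlap. The limit of 12 bases was chosen after the values were seen, and the exception lay at 13 bases. SNORD57 shows the pattern, with a peak that runs from 47 bases above the gene's lower-coordinate edge to 6 bases beyond the higher one. How reads from near-identical copies were placed is not given in the sources used here.

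**Figure D3:**
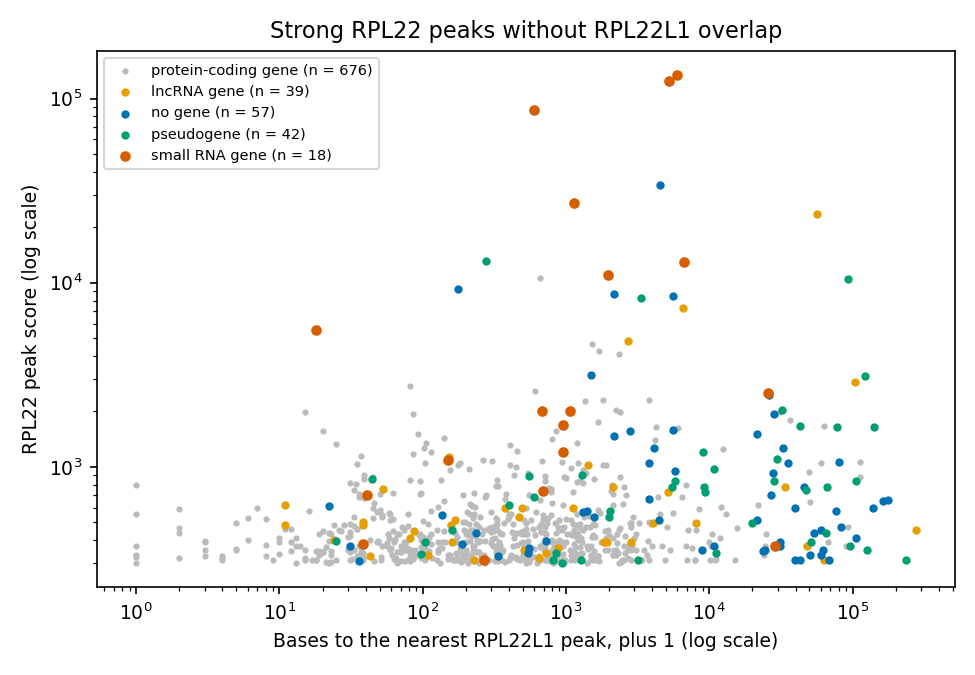
RPL22 score of each of the 832 non-overlapping peaks (y axis, log scale) against the bases to the nearest RPL22L1 peak plus 1 (x axis, log scale), coloured by gene class. Small RNA genes hold the highest points. Peaks with the summit outside genes and peaks in pseudogenes lie mostly to the right. Their median gaps are 21503 and 9109 bases, against 360 bases in protein-coding genes.

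Few non-overlapping peaks were tied to tRNA genes, and a summit just outside the gene was common in both kinds of peak. Of 79 strong shaped peaks with the summit inside a tRNA gene 1 was non-overlapping, or 1.27% (0.0320 to 6.85%), in TRC-GCA12-1 with a score of 2503. The background was 24.3%. Such summits made up 0.120% (0.00304 to 0.668%) of non-overlapping and 3.02% (2.39 to 3.75%) of overlapping peaks. Among all shaped RPL22 peaks it was 0.200% (0.164 to 0.242%). A further 7 non-overlapping peaks had the summit 1 to 50 bases outside a tRNA gene. Thus 7 of 8 had the summit outside, or 87.5% (47.3 to 99.7%). For overlapping peaks it was 95 of 173, or 54.9% (47.2 to 62.5%), and these intervals overlap. The highest was at an edge of TRQ-TTG3-3, at chr6:27795845-27795897, with a score of 33952 and its summit 1 base outside the gene. TRS-GCT6-1, TRP-TGG3-3 and TRC-GCA21-1 had scores of 8452, 3159 and 2450 with the summit 11, 2 and 12 bases outside. The peaks at TRQ-TTG3-3, TRS-GCT6-1, TRP-TGG3-3 and TRQ-CTG4-1 shared bases with the tRNA gene although their summits lay outside it. The strand of tRNA genes was not in the table used, so leader and trailer sides cannot be told apart.

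Gene classes, set by the position of the summit, were compared for all strong shaped peaks. Non-overlapping peaks made up 25.6% (23.95 to 27.3%) of those in protein-coding genes, 23.9% (17.6 to 31.2%) in lncRNA genes, 20.6% (16.0 to 25.8%) outside genes and 30.9% (23.2 to 39.4%) in pseudogenes. In snoRNA genes it was 14 of 87, or 16.1% (9.09 to 25.5%), and in snRNA genes 0 of 11, which allows up to 28.5%. The tRNA interval lies below all of these except that of snRNA genes, and the other intervals overlap each other. Most non-overlapping peaks, 676 of 832 or 81.2% (78.4 to 83.8%), were in protein-coding genes, against 75.9% (74.2 to 77.6%) of overlapping peaks and 88.3% (88.0 to 88.6%) of all shaped RPL22 peaks.

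**Figure D4:**
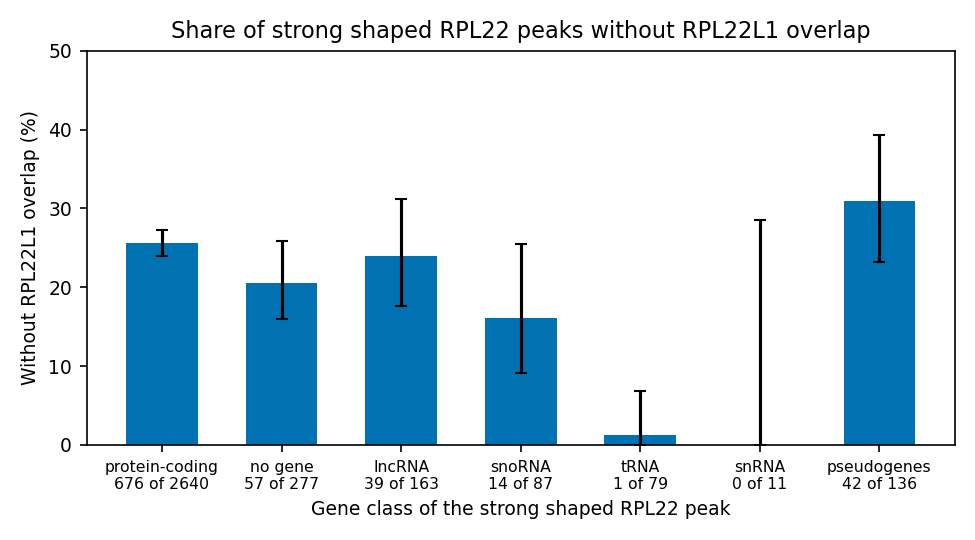
Share of strong shaped RPL22 peaks without RPL22L1 overlap (y axis, percent) in each gene class (x axis), with the counts and 95% Clopper-Pearson intervals. The lowest classes are snRNA with 0 of 11 and tRNA with 1 of 79, and protein-coding genes, the largest class, stand at 25.6%.

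Pseudogenes held 42 non-overlapping peaks, many of them copies of abundant non-coding RNAs. Copies of 7SK, which restrains transcription elongation, made up 8, copies of 5S rRNA 7, and copies of 5.8S rRNA 2. These families were not counted among the overlapping peaks, so the counts do not set the non-overlapping peaks apart. Of 136 strong shaped peaks in pseudogenes 30.9% (23.2 to 39.4%) were non-overlapping, an interval that holds the background of 24.3%. The highest was RNA5-8SP3 with a score of 13050 at chr9:108992407-108992439, and the next was LOC124901556 with 10453 at chr6:4228471-4228500. LOC124902355 had 8214. How reads shared with the parent genes were assigned is not given in the sources used here, so the origin of these peaks among the copies is uncertain.

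The share in protein-coding genes was lower at higher scores in both kinds of peak. At 500 or more it was 66.5% of non-overlapping and 60.5% of overlapping peaks, against 81.2% and 75.9% at 300 or more. Between scores of 300 and 500 there were 560 non-overlapping peaks, of which 88.4% lay in protein-coding genes. From 1000 to below 3000 it was 63.4% of 71, and at 10000 or more 1 of 11, HMGA1. HMGA1, a chromatin architectural protein gene, had a score of 10572 at chr6:34246157-34246190, with the summit 52 bases before the annotated gene end and the nearest RPL22L1 peak 661 bases away. The lncRNA with the highest score was NKX2-1-AS1, with 23599 at chr14:36521182-36521213 and a gap of 56651 bases. At the limit itself, STRAP, IQGAP1 and DNASE1 lay just inside with a score of 300 and gaps of 624, 2360 and 816 bases, and RDX, ACTG1 and CSNK1G2 just outside with 299 and gaps of 19, 183 and 567 bases.

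The distance to RPL22L1 peaks varied widely. The median was 511 bases, with quartiles of 102 and 1669. In 6 regions a RPL22L1 peak touched the RPL22 peak without sharing a base, in CTSC, RPTOR, SPTBN1, SYVN1, RNMT and SNRPA. In a further 127, or 15.3% (12.9 to 17.9%), 1 to 50 bases lay between, and 84, or 10.1% (8.13 to 12.3%), had more than 10000 bases. The nearest RPL22L1 peak was flat in 549 of 832 cases, and the median distance to a shaped one was 2004 bases. The farthest were ADAMTS9-AS2 with 276227 bases, LOC100286746 with 236873 and a region of chromosome 5 outside genes with 176863.

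Most regions in genes lay in a gene with RPL22L1 peaks at other positions. Of the 775 regions in genes, 718 lay in a gene that held RPL22L1 peaks elsewhere, or 92.6% (90.6 to 94.4%), and for overlapping peaks a further RPL22L1 peak was found in 87.1% (85.7 to 88.4%). These shares mix gene classes, and small RNA genes made up 2.16% of non-overlapping and 7.04% of overlapping peaks. A long gene has more room for a further peak, and in a very short gene the selection largely fixes its absence. The shares are therefore a description only. Protein-coding genes of non-overlapping peaks held a median of 19 RPL22L1 and 12 RPL22 peaks, and those of overlapping peaks 27 and 13. The remaining 57 regions were in genes without any RPL22L1 peak, of which 34 were pseudogenes, 12 snoRNA genes and 5 lncRNA genes. Just 3 were protein-coding, CDH5 with a score of 1980, MC1R with 351 and the histone gene H2BC1 with 313. CDH5 and MC1R were named after their values were seen, and H2BC1 is in the histone list.

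Genes seldom held more than 1 such region. The 775 regions in genes fell in 737 genes, of which 700 held 1, 36 held 2 and 1 held 3. No matching count is given for overlapping peaks, so this is a description only. The gene with 3 was TPCN1, an endolysosomal ion channel gene, with scores of 385, 331 and 313 and gaps of 300, 865 and 729 bases. SLC29A1, a nucleoside transporter gene, had 1569 and 390, and FAT1, which encodes an atypical cadherin, had 1343 near its end and 443 at its start. SLC39A6, a zinc transporter gene, had 1171 and 301. WDR5, a subunit of histone methyltransferase complexes, had 813 and 669, and CNOT1, the scaffold of the CCR4-NOT deadenylase, had 804 and 305. An overlapping peak was also found in 201 of the 737 genes, or 27.3% (24.1 to 30.6%).

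MDM4, an inhibitor of p53 whose splicing RPL22 is known to influence, held a pair of these regions. They lay at chr1:204537524-204537568 and chr1:204537631-204537676, with scores of 354 and 1046, and their summits were 21144 and 21251 bases from the gene start. The other 7 RPL22 peaks of the gene scored 21 to 161. The nearest RPL22L1 peak, flat and with a score of 172 in its own list, was 74 and 181 bases away, and the nearest shaped one 679 and 571 bases. The p53 list had 3 of 5 strong shaped peaks without overlap, or 60% (14.7 to 94.7%), an interval that holds the background of 24.3%, and the one outside MDM4 was in PLK3 with a score of 338. No such region lay in RPL22, RPL22L1, UBAP2L, SMAD2, MALAT1 or NEAT1. How many overlapping strong peaks these genes held is not given here, so nothing is read from this absence.

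**Figure D5:**
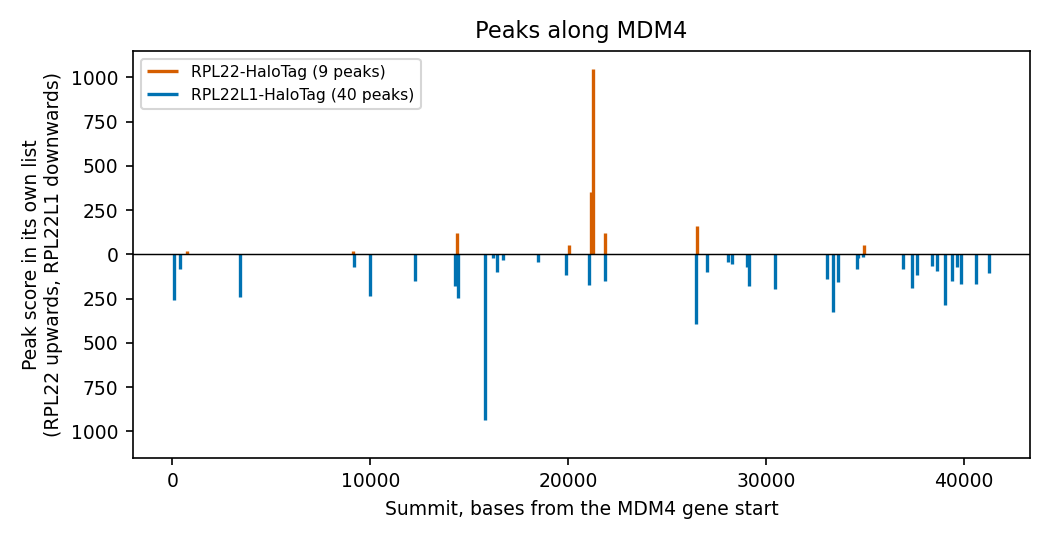
Peaks along MDM4 by the bases from the gene start to the summit (x axis), with the RPL22 score upwards and the RPL22L1 score downwards (y axis, each on the scale of its own list). The RPL22 peaks of 354 and 1046 stand side by side at 21144 and 21251 bases, and the highest RPL22L1 peak, 936, lies at 15819 bases.

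Genes of RNA processing and ribosome assembly were examined as lists. Among splicing regulators, 7 of 40 strong shaped peaks were non-overlapping, or 17.5% (7.34 to 32.8%). SRSF1, an SR protein gene that promotes exon inclusion, had the highest score, 1936 at chr17:58003522-58003554, with a RPL22L1 peak of 643 lying 85 bases away. SRSF6 had 700, HNRNPK 449, SRSF4 404, HNRNPDL 345, SRSF5 306 and HNRNPC 301, and their gaps were 19 to 302 bases. The ribosome biogenesis list had 10 of 51, or 19.6% (9.82 to 33.1%), of which 4 had the summit in a gene nested in the list's gene. These were SNORD57 in NOP56, SNORD69 in GNL3, SNORD105B in PPAN, with 1210, and LOC124902750 in DDX10, with 391. KRI1, a factor of small-subunit assembly, had 4106 at chr19:10554444-10554473, and LSG1, a GTPase of late large-subunit maturation, had 501. RRP12 had 391, KRR1 386, POLR1C 374 and DDX27 313. None of these shares lies clear of the background of 24.3%.

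Histone, translation factor and colorectal cancer driver genes had shares whose intervals hold the background of 24.3%. Of 18 strong shaped peaks in histone genes 6 were non-overlapping, or 33.3% (13.3 to 59.0%). H1-4, a linker histone gene of 787 bases, held a pair of them with scores of 574 and 1507, at 49 and 771 bases from its start, and a RPL22L1 peak of 58 and another of 77 lay 15 and 91 bases away. H1-10, H2AC17, H2AC12 and H2BC1 had 391, 372, 360 and 313. Translation factor genes, a list added after the data were seen, had 8 of 33, or 24.2% (11.1 to 42.3%), with EEF1G at 847 and EEF2, the translocation factor, at 344 and 395. The colorectal cancer driver list had 2 of 14, or 14.3% (1.78 to 42.8%), and SMAD3, a TGF-beta signal transducer, had 519 with a gap of 7 bases and TCF7L2, a Wnt pathway transcription factor, had 348 with a gap of 225 bases.

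Regions with the summit outside annotated genes numbered 57. Of these 8 had the summit within 100 bases of a gene, 7 of them the tRNA cases above, some of which reached into the tRNA gene. In 27 the summit lay more than 10000 bases from any gene. The highest that was not within 100 bases of a gene was chr1:149692845-149692877 with a score of 9294, 7296 bases from the nearest gene, followed by chr4:168327079-168327114 with 8737. At the SLC40A1 promoter, the gene of the iron exporter ferroportin, a peak of 1066 lay wholly upstream of the annotated start, at bases -159 to -127. It is shown because it lies outside the annotated transcript and 80642 bases from any RPL22L1 peak, on the gene strand of chr2:189580913-189580945 (RefSeq, GRCh38.p14), with all its bases in capitals.
SLC40A1 upstream: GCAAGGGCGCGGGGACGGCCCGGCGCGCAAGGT
This stretch of 33 bases was 81.8% G or C.

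Width entered the selection, since a wider peak is more likely to share a base with another, so the widths are given as a description. The median width was 43 bases, with quartiles of 33 and 64, against 52 bases with quartiles of 36 and 76.5 for overlapping peaks. Peaks wider than 60 bases made up 27.2% (24.2 to 30.3%) and 39.3% (37.4 to 41.2%). The median score was 415 and 477. The amount of an RNA and its binding both move a peak's score, and they cannot be told apart here.

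The labelled cell type was checked by peaks in marker genes. Of 7 markers of colorectal epithelium 5 held peaks in both lists, EPCAM, KRT8, KRT18, KRT19 and CDH1, while CEACAM5 and LGALS4 held none. KRT19, a keratin gene, held a pair of non-overlapping peaks with scores of 529 and 300. Of 8 markers of other cells 2 held RPL22 peaks, COL1A1 with 9 and PECAM1 with 6, and 5 held RPL22L1 peaks, and none held a non-overlapping strong peak. A peak list gives no expression level, so this is a check of presence only.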

How the data were processed

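GoldCLIP peak lists of HCT116 cells were used from the RPL22-HaloTag and RPL22L1-HaloTag libraries, grouped by the genotype in the labels. The submitters' processing notes name cutadapt 4.8, STAR 2.7.10a, UMI-tools 1.1.5, MACS3 3.0.0a6 and the build hg38, without roles. The deposited score of each peak is the authors' whole-number value. Its scale and the control used are not given in the sources used here. Other deposited columns used were peak start, end and summit offset, which are positions in bases.

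Gaps are the bases between a peak and the nearest RPL22L1 peak, and 1 shared base counted as overlap. A summit was given to the shortest of 59098 RefSeq genes (GRCh38.p14) that contained it. Strand came from the RefSeq promoter table, which gave it for 27197 genes. Exons and repeats were not used, and a few genes of the lists are not reported here. Regions, gene lists and limits were chosen with earlier results of these data known. Genes were named by score, number of regions, gap and list membership, and those named after their values were seen are marked. The gap and gene code was tested on 600 simulated peaks, with 0 differing from a direct search. Calculations used Python 3.11.15 with pandas 2.3.3 and numpy 2.4.6, intervals scipy 1.17.1 and plots matplotlib 3.10.9.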

Additional observations from a re-analysis of the deposited data

Results flagged for a closer look

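Some strong shaped peaks lay outside the chromosomes considered. On chrR, which is not one of those chromosomes, 8 of 18 strong shaped RPL22 peaks shared no base with a RPL22L1 peak. The share on the chromosomes considered was 24.3%, and with so few peaks on chrR no difference is read from these counts. The highest, with a score of 29376167, lay at 16018 to 16092, 1142 bases from the nearest RPL22L1 peak. The next, with 228227 at 21722 to 21857 and 186642 at 14657 to 14717, were 58 and 108 bases from one. On the mitochondrial chromosome 1 of 3 strong shaped peaks was without overlap, with a score of 35504. On chromosome Y it was 0 of 3, and on other sequences 1 of 6.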

How the results depend on the processing

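Each setting was compared with the reported value, 832 regions, 24.3% of strong shaped peaks, 81.2% in protein-coding genes, 92.6% in genes with another RPL22L1 peak, a median gap of 511 bases and 5.11% within 100 bases of a gene start. A score of 200 or more gave 2197 regions, 31.1%, 85.8% and 95.4%, with 2.7% near starts against 1.44% of overlapping peaks. With 500 or more it was 272 regions, 18.4%, 66.5%, 82.8% and a median gap of 824 bases, and near starts 7.19% against 2.45%, with overlapping intervals. Without flat RPL22L1 peaks the share was 34.5%, that in genes with another RPL22L1 peak 94.6% and the median gap 2272 bases. With no RPL22L1 peak within 50 bases the share was 20.4% and the median gap 729 bases. With none within 1000 bases it was 291 regions, 8.51%, 65.3%, 82.04% and a median gap of 2852 bases, which follows in part from the setting. Every gene at the summit gave 87.6% protein-coding, at least 1 shaped RPL22L1 peak in the gene gave 81.2%, and a limit of 50 bases gave 2.47% near starts. In each of the 6 settings of score, shape and distance the share near starts was higher in non-overlapping than in overlapping peaks. These settings reuse the same libraries, many of the same peaks and a selection against RPL22L1 peaks, so they are not independent of each other. Of 40 values 17 stayed within the interval or within 1.5-fold. The settings for starts were added after the data were seen. Causes were not tested. The comparison of GC content over all regions needs a genome and was not run. No replicate could be left out, and no paired analysis was possible because each group had 1 library. Depth is unknown, so a missing RPL22L1 peak does not show that RPL22L1 is absent there.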

Other observations

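The share of strong shaped peaks without RPL22L1 overlap was also counted by chromosome, beside the background of 24.3%. It was highest on chromosome 19, with 59 of 159, or 37.1% (29.6 to 45.1%), and lowest on chromosome 21, with 4 of 28, or 14.3% (4.03 to 32.7%). Chromosome 1 held the most regions, 95 of 379, or 25.1% (20.8 to 29.7%). Chromosomes 19 and 21 were picked as the extremes of 23, and no explanation was examined.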
